A study of Mus musculus with 21 samples.

Results

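The regions described here are peaks of Rnf20 in mouse embryonic stem (ES) cells that met no peak of Fbxl19 and no H2Bub1 domain of ES cells, but lay in an H2Bub1 domain of Fbxl19-overexpressing ES cells or of differentiated cells. They were chosen by overlap of at least 1 bp between the deposited lists, on chromosomes 1 to 19. The rule found 797 peaks, which is 9.71% (interval 9.07 to 10.4) of the 8211 autosomal Rnf20 peaks and 16.4% of the 4861 autosomal Rnf20 peaks without Fbxl19. The whole Rnf20 list held 8606 peaks. "Gained" below means only that a domain was listed in one state and not in ES cells. Overexpression is another cell clone and not a later time, so the word says nothing about order.

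All cells were of the J1 line, a male mouse ES line grown here with leukemia inhibitory factor. The Rnf20 pulldown was 1 sample from J1 cells that contain BirA, a bacterial ligase that attaches biotin to a tagged protein. Fbxl19 was pulled down through a flag-biotin tag, in 2 samples of a clone with more than 5-fold overexpression (OE-high) and in 2 samples of a BirA-containing clone below the endogenous level (OE-low). H2Bub1 was precipitated by antibody from 3 samples of unmodified ES cells, 3 of the OE-high clone, 2 of unmodified cells at day 4 of differentiation, 2 of Fbxl19-knockdown ES cells and 2 of Fbxl19-knockdown cells at day 4. Each overexpression level was represented by 1 clone, and the labels name neither the knockdown reagent nor the way of differentiation. How Rnf20 was tagged for its streptavidin beads is likewise not named. Peak lists hold no expression values, so the identity of the cells was not checked.

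Rnf20 is the E3 ubiquitin ligase, working with its partner Rnf40, that places a single ubiquitin on histone H2B. The mark, H2Bub1, is laid down along transcribed genes as RNA polymerase II elongates. Fbxl19 is an F-box protein whose CXXC zinc finger binds unmethylated CpG islands. The series title names Fbxl19 as a recruiter of Rnf20 to these islands, and the peaks described here are Rnf20 sites where no Fbxl19 peak was listed.

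No replicate values were analysed, since 7 lists are combined by name and the Rnf20 list comes from 1 library. No difference below was tested, and the intervals of shares are exact Clopper-Pearson 95% intervals over peaks or domains, which cover counting error only. Depth per sample is unknown. A number followed by M in each H2Bub1 header, whose meaning is not explained, is lowest for differentiated cells (36) and highest for unmodified ES cells (60). The OE-high H2Bub1 list covers 246 Mb and the differentiated list 156 Mb, against 57.4 Mb for unmodified ES cells, 41.9 Mb for knockdown ES cells and 15.6 Mb for knockdown differentiated cells. A larger list meets more peaks of any kind, which bears on every share set across lists.

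The 797 peaks were somewhat shorter and of lower score than autosomal Rnf20 peaks at large, and near those outside ES domains. The median length of the class was 343 bp (interval of the median 327 to 362). It was 435 bp (426 to 443) for the 1243 Rnf20 peaks that met the same H2Bub1 conditions and also carried Fbxl19. A longer peak meets an Fbxl19 peak more easily, so length is tied to the rule. The median score of the class, the authors' own value per peak, was 61.7 (60.8 to 63.3), against 76.7 (74.1 to 79.3) for those with Fbxl19. All autosomal Rnf20 peaks had medians of 380 bp and 66.7, and the 6019 outside ES domains 351 bp (347 to 357) and 63.6 (62.9 to 64.3). The 3042 Rnf20 peaks with neither Fbxl19 nor a domain in the ES, OE-high or differentiated lists had a median score of 59.9 and a median length of 312 bp. The class made up 11.6% of the lowest of 4 score classes of autosomal Rnf20 peaks (scores 50 to 56.0) and 7.21% of the highest (scores 96.2 to 3100). In that highest class 148 of the 797 were found.

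Nearly all of the peaks lay in a domain of the OE-high list, the larger of the lists that the rule accepts (246 Mb against 156 Mb). Of the 797, 385 lay in a domain of both the OE-high and the differentiated list, 384 in an OE-high domain only and 28 in a differentiated domain only. Thus 769 lay in an OE-high domain (background over all autosomal Rnf20 peaks 46.8%) and 413 in a differentiated domain (background 30.8%). Of these 769, 50.1% were also in a differentiated domain (background over autosomal Rnf20 peaks in an OE-high domain 63.3%). Of these 413, 93.2% were also in an OE-high domain (background 96.2%). The rule used both lists, so nothing is read from these shares. The score of the OE-high host, counted once per peak, had a median of 13.2 (interval 12.8 to 13.9) for peaks in both lists and 9.96 (9.69 to 10.5) for peaks in the OE-high list only.

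The Fbxl19-knockdown lists were not used by the rule, and few of the peaks lay in them. In knockdown ES cells 54 of the 797 had a domain (6.78%, interval 5.13 to 8.75). The background was 18.7% over all autosomal Rnf20 peaks, and 3.19% over the 6019 outside ES domains, to which the rule confines the class. Rnf20 peaks with gained H2Bub1 and with Fbxl19 gave 7.56% (6.15 to 9.18), an interval that overlaps that of the class. Rnf20 peaks inside ES domains gave 61.7% without and 61.2% with Fbxl19, and those without Fbxl19 and without any of the 3 domains 0.789% (0.506 to 1.17).

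**Figure D1:**
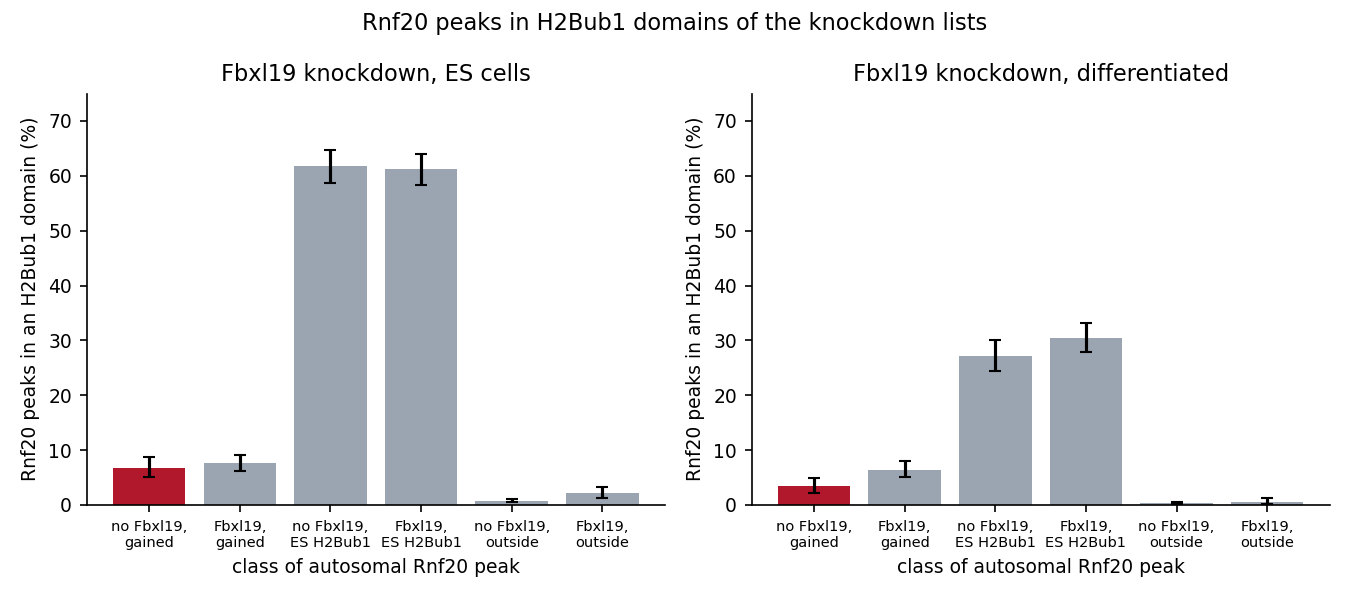
Bars give the share of each class of autosomal Rnf20 peaks that lay in an H2Bub1 domain of Fbxl19-knockdown ES cells (left) or Fbxl19-knockdown differentiated cells (right), in percent, with exact 95% intervals as error bars. "Gained" is a domain in the OE-high or differentiated list and not in the ES list, and "outside" is none of the 3. The red class of 797 peaks stands at 6.78% and 3.39%, against 7.56% and 6.44% for gained peaks with Fbxl19.

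In knockdown differentiated cells 27 of the 797 peaks (3.39%, interval 2.24 to 4.89) lay in a domain, against a background of 9.18% over all autosomal Rnf20 peaks and 1.99% outside ES domains. The gained peaks with Fbxl19 gave 6.44% (5.14 to 7.95), 3.05 percentage points more (interval 1.06 to 4.94). With 50% of the Rnf20 peak to be covered the difference was 1.90 points (interval -0.134 to 3.87). It was 1.56 points (-0.697 to 3.63) with the upper 50% of each H2Bub1 list, and 1.91 (-0.159 to 4.12) with the upper 50% of each Fbxl19 list. Both cuts also change the class, to 593 peaks (414 of them among the 797) and to 1244 peaks. Limited to peaks in a differentiated domain, 23 of 413 (5.57%, interval 3.56 to 8.24) lay in a domain of the differentiated knockdown, against 67 of 754 with Fbxl19 (8.89%, interval 6.95 to 11.1) and a background of 24.7%. Counted by domain rather than by peak, the classes were close. Of the 324 differentiated domains that held peaks of the class, 14.5% (10.9 to 18.8) overlapped a knockdown differentiated domain somewhere, and of the 637 that held gained peaks with Fbxl19, 15.5% (12.8 to 18.6) did. These hosts were unlike, with median lengths of 33300 and 23600 bp, and 17.6% and 9.73% of them overlapped an ES domain. Among hosts of the class the share was 28.1% (17.0 to 41.5) with an ES domain and 11.6% (8.03 to 16.1) without. The domain counts are thus not a comparison of like hosts.

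Altogether 722 of the 797 peaks lay in neither knockdown list and 6 lay in both. These 2 counts were not made for other Rnf20 peaks, so nothing is read from them. Of the 6019 outside ES domains 3.19% lay in the knockdown ES list and 1.99% in the differentiated knockdown list. The 54 peaks in knockdown ES domains fell into 40 domains, of which 25 overlapped no domain of unmodified ES cells anywhere and 15 did. Those 40 domains ran from 2800 bp to 452400 bp, with a median of 24600 bp. By host, 35 of the 385 peaks in both gained lists were among them (9.09%, interval 6.41 to 12.4), 18 of the 384 in the OE-high list only (4.69%, interval 2.80 to 7.31) and 1 of the 28 in the differentiated list only. The 27 peaks in the differentiated knockdown fell into 21 domains with a median of 8000 bp, and 23 of the 27 belonged to the group in both gained lists (5.97% of it, interval 3.82 to 8.83). The other 4 were of the OE-high only group (1.04%, interval 0.285 to 2.65).

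Most of the host domains were separate from ES domains rather than longer versions of them. The 769 peaks in OE-high domains fell into 582 domains, of which 116 (19.9%, interval 16.8 to 23.4) overlapped an ES domain at some other point and 466 did not. Among all 7155 autosomal OE-high domains 34.8% overlapped an ES domain. In the differentiated list the 413 peaks fell into 324 domains, of which 57 (17.6%, interval 13.6 to 22.2) overlapped an ES domain, against 41.5% of all. A peak of the class lies outside ES domains by rule, which lowers this share. Gained peaks with Fbxl19, under the same restriction, gave 12.8% (10.7 to 15.1) and 9.73% (7.54 to 12.3). In the 116 OE-high hosts that reached into an ES domain, 143 peaks of the class lay a median of 6706 bp from it. Of these 116 hosts 50 (43.1%, interval 33.9 to 52.6) overlapped a knockdown ES domain, and of the 466 separate hosts 34 (7.30%, interval 5.11 to 10.05). Over all autosomal OE-high domains the share was 57.5% (55.5 to 59.4) for the 2488 that overlapped an ES domain and 5.06% for the 4667 that did not. Over all 797 peaks the median distance to the nearest ES domain was 198029 bp, and 94 (11.8%, interval 9.64 to 14.2) lay within 10 kb, against 7.26% of all autosomal Rnf20 peaks outside ES domains. With the upper 50% of each H2Bub1 list the median was 552697 bp, to the ES domains kept. The class then held 593 peaks, of which 414 were among the 797.

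Host domains were longer than the lists at large. Their median length was 35500 bp in the OE-high list, against 21600 bp over all autosomal domains, and 33300 bp in the differentiated list, against 19800 bp. A longer domain is more likely to hold any given peak. Scores of the hosts were near those of their lists, with medians of 11.4 against 11.7 in the OE-high and 9.56 against 10.1 in the differentiated list. More than 1 peak of the class lay in 125 of the 582 OE-high hosts and in 58 of the 324 differentiated hosts, so 312 of the 769 peaks shared an OE-high domain with another. Such peaks share a source, and the intervals over peaks treat them as separate.

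The peaks themselves met no Fbxl19 peak, but their host domains could hold one elsewhere. An Fbxl19 peak of either clone lay in 377 of the 582 OE-high hosts (64.8%, interval 60.7 to 68.7) and in 210 of the 324 differentiated hosts (64.8%, interval 59.3 to 70.0). All autosomal domains gave 68.4% and 73.0%, so the hosts' shares were near or below those of the lists at large. With the upper 50% of each Fbxl19 list the class held 1244 peaks, and 43.3% of its 909 OE-high and 36.9% of its 545 differentiated hosts held Fbxl19. The share over all domains was not computed at that cut, so nothing is read from these values. Counting only the OE-low list, a peak lay in 100 of the 582 OE-high hosts (17.2%, interval 14.2 to 20.5), against 12.5% of all OE-high domains, and in 44 of the 324 differentiated hosts (13.6%, interval 10.04 to 17.8), against 11.9% of all. Where the host held an OE-high Fbxl19 peak, the Rnf20 peak lay a median of 6825 bp from it in OE-high domains and 6838 bp in differentiated domains. The remaining 205 OE-high hosts and 114 differentiated hosts held no Fbxl19 peak of either list.

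Hosts were next set beside other domains of like length with no ES counterpart. Among OE-high domains under 10 kb that overlapped no ES domain, an OE-high Fbxl19 peak was found in 17 of 72 hosts (23.6%, interval 14.4 to 35.1), against 658 of 1325 other domains (49.7%, interval 46.9 to 52.4). From 10 to 20 kb the shares were 48.2% and 58.1%, from 20 to 50 kb 61.0% and 70.2%, and from 50 kb on 78.5% (71.4 to 84.6) and 80.4% (77.4 to 83.3). In the differentiated list the shares under 10 kb were 42.2% (27.7 to 57.8) and 61.6% (58.3 to 64.7), and from 50 kb on 74.7% and 79.2%. The hosts' share was the lower of the pair in every length band, with intervals that overlapped from 10 kb on. The rule keeps the stretch under the Rnf20 peak free of Fbxl19, which is a larger part of a short domain. The other domains also include hosts of gained Rnf20 peaks with Fbxl19. Of the 963 OE-high hosts of such peaks, 99.2% held OE-high Fbxl19. A lower share in hosts of the class is thus built into the choice at any length, and nothing is read from it.

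**Figure D2:**
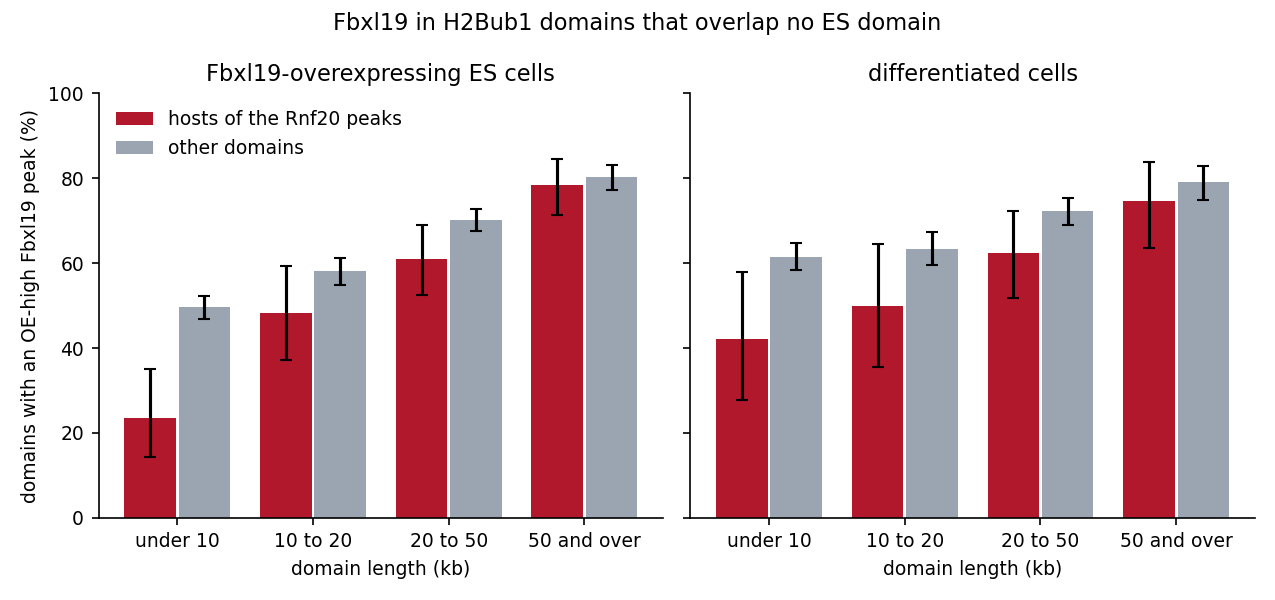
Bars give the percent of H2Bub1 domains that held an OE-high Fbxl19 peak, by domain length in kb, in the OE-high list (left) and the differentiated list (right), for domains that overlap no ES domain, with exact 95% intervals as error bars. Red bars are hosts of the Rnf20 peaks and grey bars are the other domains, which include hosts of gained Rnf20 peaks with Fbxl19. The gap is widest under 10 kb in the OE-high list, at 23.6% against 49.7%, and the intervals overlap from 10 kb on. The rule keeps the stretch under the Rnf20 peak free of Fbxl19, so a lower red share is built into the choice. Why the gap differs by length was not tested.

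Fbxl19 lay nearer to these peaks than to Rnf20 peaks without Fbxl19 outside the 3 H2Bub1 lists. The median distance was close to that for Rnf20 peaks without Fbxl19 in ES domains. The median distance to the nearest OE-high Fbxl19 peak was 12573 bp (interval 10664 to 14462), and the quartiles were 3239 and 37397 bp. With the upper 50% of each Fbxl19 list the median was 28893.5 bp, over the 1244 peaks then in the class. With the full lists it was 14129 bp for Rnf20 peaks without Fbxl19 in ES domains and 159354 bp for those outside the 3 H2Bub1 lists. An OE-high Fbxl19 peak lay within 10 kb of 361 peaks of the class (45.3%, interval 41.8 to 48.8), of 44.5% of those in ES domains and of 14.0% of those outside. Counting either Fbxl19 list, 102 peaks of the class (12.8%, interval 10.6 to 15.3) lay within 1 kb of Fbxl19, against 14.2% (12.1 to 16.5) of those in ES domains and 3.19% of those outside. At the other extreme 103 (12.9%, interval 10.7 to 15.5) were farther than 100 kb from OE-high Fbxl19, against 22.2% (19.7 to 24.9) of those in ES domains and 57.4% of those outside. Domains and Fbxl19 peaks are both denser in some regions than in others, and no expected distance was computed.

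**Figure D3:**
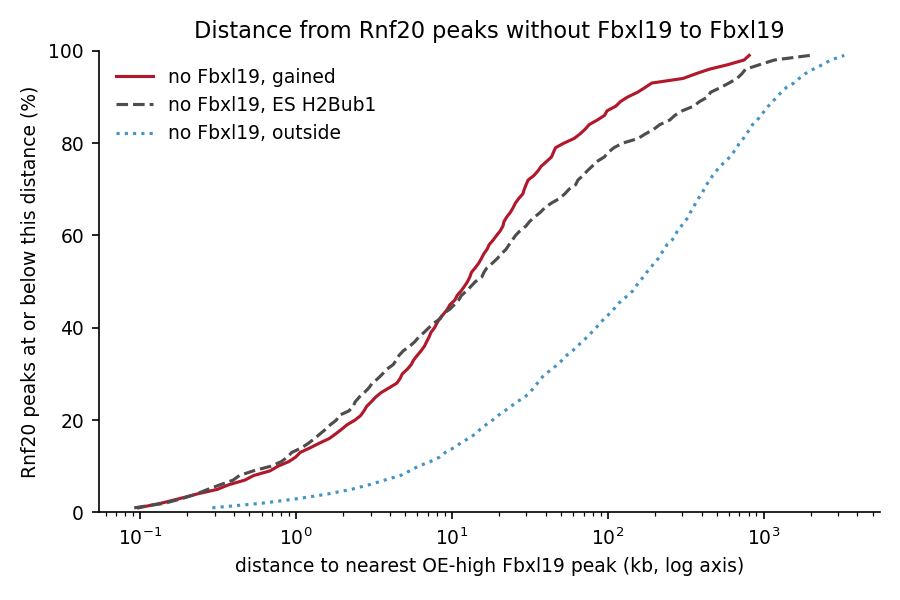
Lines give the percent of Rnf20 peaks without Fbxl19 (y) that lie at or below a distance in kb to the nearest OE-high Fbxl19 peak (x, log axis), for peaks with gained H2Bub1 (red), in ES domains (dashed) and outside the 3 H2Bub1 lists (dotted). The red and dashed lines run close together up to about 10 kb, with medians of 12573 and 14129 bp, and the dotted line lies far to the right.

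The spacing of Rnf20 peaks was also measured. The median gap to the next Rnf20 peak was 13016 bp (interval 10827 to 16113), against 21607.5 bp when only 1 peak per host domain was counted. It was 26871 bp for gained peaks with Fbxl19, 1197.5 bp for peaks without Fbxl19 in ES domains and 93142 bp for those outside. Within 1 kb of another Rnf20 peak lay 184 of the 797 (23.1%, interval 20.2 to 26.2). All autosomal Rnf20 peaks gave 20.9%, and those outside ES domains, to which the rule confines the class, gave 13.6% (12.8 to 14.5). For 50 of these 184 (27.2%, interval 20.9 to 34.2) that neighbour overlapped Fbxl19. The same share was 20.4% (16.9 to 24.3) for peaks without Fbxl19 in ES domains and 9.38% (6.27 to 13.3) for those outside.

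Within their domains the peaks stood at the ends in a smaller share than Rnf20 peaks with Fbxl19, with intervals that did not overlap. The midpoint was within 1 kb of an end for 209 of the 769 peaks in OE-high domains (27.2%, interval 24.1 to 30.5), against 41.0% (38.2 to 43.8) for gained peaks with Fbxl19 and 21.6% (18.8 to 24.6) for peaks without Fbxl19 in ES domains. The same shares in differentiated domains were 29.3% (24.9 to 33.9), 51.5% (47.8 to 55.1) and 21.6% (18.1 to 25.5). The background over all autosomal Rnf20 peaks was 34.2% in OE-high and 43.7% in differentiated domains. Outside ES domains it was 35.6% and 43.6%. A stretch of 1 kb is a larger part of a short domain, and the differentiated hosts of the gained classes had median lengths of 33300 and 23600 bp. Under the alternatives the share of the class in OE-high domains ran from 21.5% to 33.6%, and the other classes were not recomputed. The median distance of the midpoint to the nearer end was 18.5% of the domain length in OE-high domains, against 7.52% for gained peaks with Fbxl19, where 25% would be the middle of the possible range of 0 to 50%. In the same OE-high hosts 848 peaks of OE-high Fbxl19 were listed, and 227 of them (26.8%, interval 23.8 to 29.9) had their midpoint within 1 kb of an end, a share near that of the Rnf20 peaks. In the differentiated hosts the share of Fbxl19 peaks was 36.9% (32.0 to 41.9), above the 29.3% of the Rnf20 peaks, with intervals that overlap. The share of Fbxl19 peaks at the ends of all domains was not computed.

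**Figure D4:**
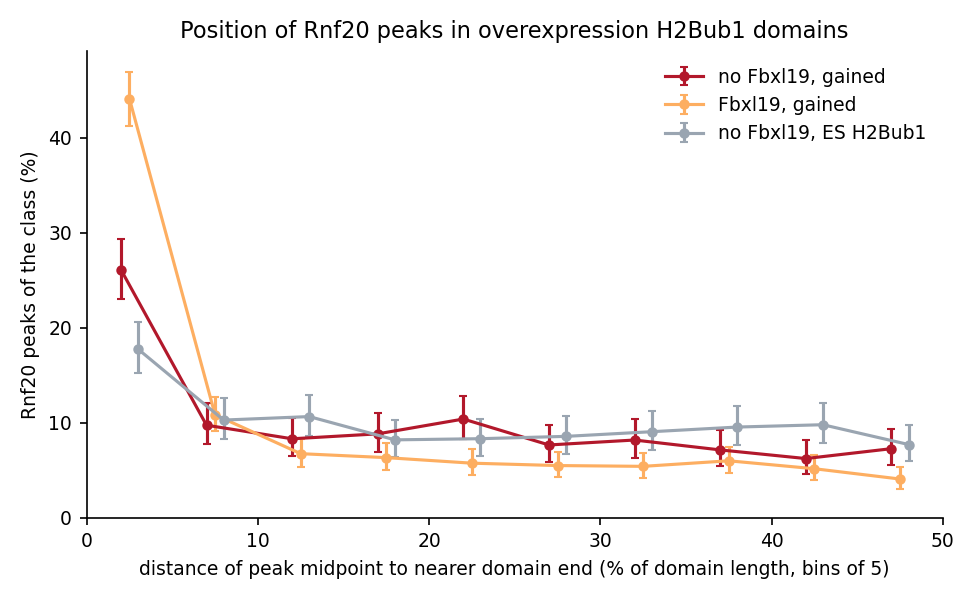
Points give the percent of Rnf20 peaks of a class (y) by the distance of their midpoint to the nearer end of the OE-high H2Bub1 domain, in bins of 5% of the domain length (x, points shifted slightly sideways for legibility), with exact 95% intervals, for gained peaks without Fbxl19 (red), gained peaks with Fbxl19 (orange) and peaks without Fbxl19 in ES domains (grey). The first bin holds 26.1% of the red and 44.1% of the orange class, and all other bins of the red class hold between 6.24% and 10.4%.

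The peaks were unevenly spread over chromosomes. Chromosome 8 had 132 of them, 14.2% (interval 12.0 to 16.6) of its 928 Rnf20 peaks and 16.6% of the class, and chromosome 1 had 4, which is 1.12% (interval 0.306 to 2.84) of its 357. The median over autosomes was 9.45%, and the 17 other autosomes ranged from 7.20% to 12.9%. Chromosome 8 had 1.27 Rnf20 peaks per OE-high Fbxl19 peak and chromosome 1 had 0.272, against a median of 0.601. On chromosome 1 the ES list was also long beside the OE-high list, with 349 domains against 493, a ratio of 0.708 where the median was 0.366. Chromosome 11, with a ratio of 0.655, still had 42 peaks of the class (8.02%). The part of these ratios in the chromosome counts was not tested.

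**Figure D5:**
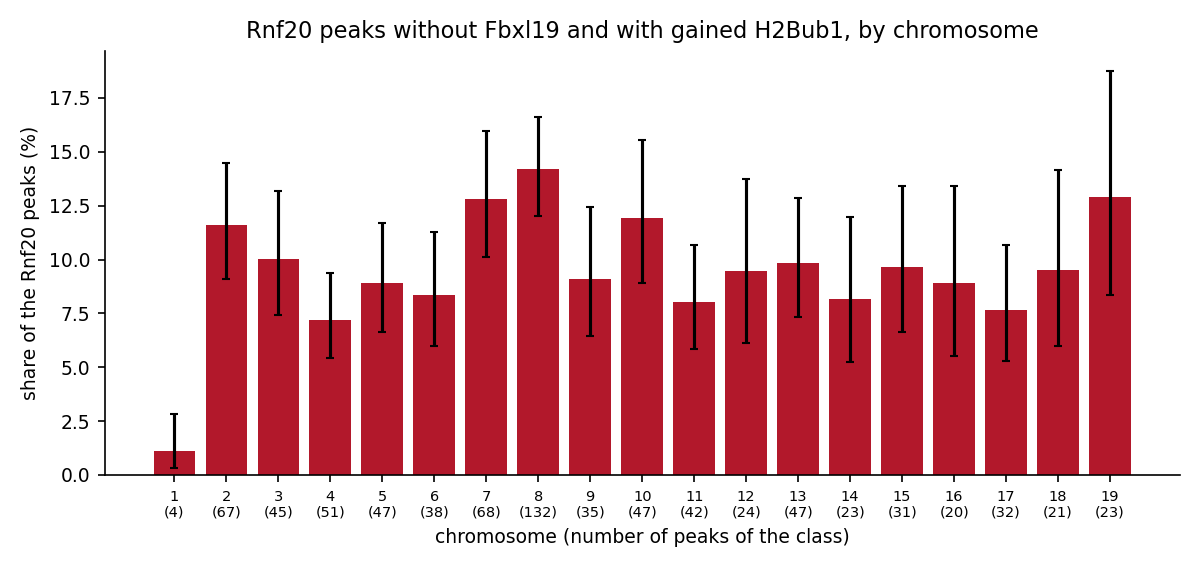
Bars give the peaks of the class as a percent of all Rnf20 peaks of each autosome (y), with exact 95% intervals as error bars and the number of peaks in parentheses under each chromosome (x). Chromosome 1 stands lowest with 4 peaks (1.12%) and chromosome 8 has the largest number, 132 (14.2%).

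The highest Rnf20 scores were examined in each host group, on mm9 and counted from 1. Among peaks in an OE-high domain only, the peak at chr9:56071210-56071917 had the highest score, 1219.85, inside a 72000-bp domain with a score of 9.72. It also met a knockdown differentiated domain of only 400 bp, chr9:56071400-56071799, whose score of 63.3 stood far above the list median of 8.43. The next, chr3:88379073-88381320 (score 1129.41), sat across the start of a 70800-bp domain. The third, chr17:37147744-37150032 (score 508), was 2289 bp long and sat at the end of a 10400-bp OE-high domain with a score of 23.8. A knockdown ES domain of 10000 bp began at the same base, while the nearest ES domain lay 5744 bp away.

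Among peaks in both gained lists the leading one was chr2:20821343-20822010, with a score of 633. It lay inside a 96400-bp OE-high domain and a 98000-bp differentiated domain that nearly coincide, 67540 bp from OE-high Fbxl19 and 17943 bp from the nearest ES domain. The peak at chr6:39363776-39365511 (score 296) lay 3803 bp from OE-high Fbxl19. The peak at chr2:32819458-32820908 (score 274) lay 1035 bp from OE-high and 1223 bp from OE-low Fbxl19, and it was also in a 3200-bp domain of the differentiated knockdown. These 3 sites thus range from far outside to just beside an Fbxl19 peak.

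Among the 28 peaks in a differentiated domain only, chr11:97637641-97638537 (score 307) stood at the start of an 8400-bp domain and 662 bp from an ES domain. Next were chr16:57592387-57593299 (score 233) at the start of a 14000-bp domain and chr8:27125718-27126330 (score 143) at the end of a 5400-bp domain. All 3 lay between 4499 and 20900 bp from OE-high Fbxl19.

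Peaks in knockdown domains were taken in order of score, 10 in all, and 3 of these were described above. At chr16:18533273-18533438 (score 472) a peak of 166 bp met a 400-bp knockdown differentiated domain, like the peak on chromosome 9. At chr2:166891828-166892487 (score 247) the OE-high, differentiated and knockdown ES lists had domains of 51800, 52000 and 51800 bp, all starting within 200 bp of each other, with no ES domain nearer than 910028 bp. At chr7:52382470-52383498 (score 206) the OE-high, differentiated and differentiated knockdown domains were 9800, 9400 and 8000 bp long, and OE-high Fbxl19 lay only 389 bp away. On chromosome 16 the peaks chr16:28293110-28293721 (score 137) and chr16:28294507-28295269 (score 143) shared one 2800-bp domain, with the same bounds in the OE-high and knockdown ES lists and scores of 7.20 and 8.63. They lay 634893 and 633345 bp from the nearest OE-high Fbxl19 peak. The last of the 10 were chr4:130190570-130191187 (score 136), in a 218400-bp knockdown ES domain, and chr9:110841840-110842136 (score 124), 1463 bp from an ES domain.

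The host with the most peaks of the class was the same site in both gained lists. On chromosome 6 the OE-high domain chr6:39338600-39373399, with a score of 27.3, and the differentiated domain chr6:39347000-39370399, with a score of 14.4, held the same 7 peaks. They lay within 7877 bp, from 39360380 to 39368256, with scores from 54.4 to 296 and a median of 74.4. Their distance to OE-high Fbxl19 went from 8606 bp for the first to 1058 bp for the last. The OE-high domain held 10 Rnf20 peaks in all, 2 OE-high Fbxl19 peaks and 1 OE-low peak. No ES or knockdown domain overlapped it.

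The nearest and the farthest peak from OE-high Fbxl19 mark the extremes of the class. The nearest, chr10:80640082-80640774 (score 139), missed an OE-high Fbxl19 peak by 25 bp, in OE-high and differentiated domains that start at the same base, 80639400. The farthest, chr13:6646373-6646731 (score 54.4), lay 1875141 bp from one, inside a 65400-bp OE-high domain. At the edge of the rule, the smallest Fbxl19 overlap that left out a gained peak was 13 bp. The smallest overlap with a host that kept a peak in the class was 6 bp, and the nearest peak left out lay 1 bp from a gained domain. Of the 797 peaks 696 lay wholly inside a host domain and 101 crossed its end. Of the 4 peaks on chromosome 1, chr1:136300134-136300992 (score 348) and chr1:91821468-91822377 (score 212) lay 516 and 805 bp from OE-high Fbxl19. These were named after their values had been seen.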

How the data were processed

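Chromatin immunoprecipitation with sequencing was listed in 21 samples of 12 groups, and 8 lists were used. BWA 0.5.9-r16 and MACS are named, with the mm9 build, in the submitters' processing notes, which give no role for each list. Per the file headers the 5 H2Bub1 lists come from combined samples and BCP, a caller of broad domains. Their deposited score has no formula in the sources used here, and a further deposited column gives the domain length. The Fbxl19 lists have 2 deposited score columns, of which only the first was used, to take the upper 50%. Rnf20 peak names begin with MACS, with a deposited score of 50 to 3100. Whether the third OE-high H2Bub1 sample entered its list is unknown. Starts were read as counted from 1 in the Fbxl19 lists and from 0 in the others.

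A peak met a feature if they shared at least 1 bp, and its host was the domain that shared most bases with it. Distances are the bases between 2 features. Intervals of a median come from order statistics, and that of a difference of shares joins the exact interval bounds of both shares by the square root of their summed squared distances. The rule and the comparisons were chosen with earlier results of these data known. Regions named were the 3 highest Rnf20 scores per host group, the nearest and farthest peak from OE-high Fbxl19, the host with the most peaks in each list, and the 10 highest scores in a knockdown domain. Alternatives were 50% of the Rnf20 peak covered, features within 1 kb, the upper 50% by score of the Rnf20, H2Bub1 or Fbxl19 lists, leaving out chromosome 8 or 1, and domains of at least 2 kb. Counting 1 peak per host domain was added after seeing the data. Gene tables at hand are of another build, GRCm38, so genes, promoters and sequences were not used here. On simulated data the overlap rule was tested too, and 100% of 2000 peaks were classed as planted. Python 3.11.15, NumPy 2.4.6, SciPy 1.17.1 and matplotlib 3.10.9 were used.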

Additional observations from a re-analysis of the deposited data

How the results depend on the processing

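Of 125 values recomputed under 9 alternatives, 94 stayed within the 95% interval of the reported value (for the number of peaks, within 1.5 times). Counts, shares and medians cannot change sign. Only the difference in the share in knockdown differentiated domains could, and it stayed positive under all 9 alternatives. Its interval had a negative lower bound with 50% of the peak covered (-0.134). The same held with the upper 50% of each H2Bub1 list (-0.697) and of each Fbxl19 list (-0.159). All values stayed within these limits without chromosome 8, without chromosome 1 and with domains of at least 2 kb. Leaving out chromosome 1 kept 793 of the 797 peaks, so nothing is read from it. The class held 327 peaks with the upper 50% of Rnf20 peaks and 1244 with the upper 50% of each Fbxl19 list, which bars fewer peaks. With the upper 50% of domains it held 593 peaks, of which 414 were among the 797. The shorter ES list then admits peaks that lie in ES domains of lower score. The share in knockdown ES domains was 9.48% with the upper 50% of Rnf20 peaks and 4.72% with the upper 50% of domains. With 50% of the peak covered, 70.2% of differentiated hosts held Fbxl19. Counting features within 1 kb gave 58.2% of OE-high hosts with Fbxl19 and a median distance to OE-high Fbxl19 of 17915 bp. With the upper 50% of domains, OE-high and differentiated hosts reached an ES domain in 13.3% and 8.02%, 72.1% of OE-high hosts held Fbxl19, and the median distances to Fbxl19 and to ES domains were 9772 and 552697 bp. With the upper 50% of Fbxl19 peaks these were 15.3% and 12.7% with an ES domain, 43.3% of OE-high and 36.9% of differentiated hosts with Fbxl19, 28893.5 bp to Fbxl19 and a median Rnf20 score of 64.3. With 1 peak per host domain they were 14691.5 bp and 63.4. The gap to the next Rnf20 peak was 17114 bp (within 1 kb), 17156 (upper Rnf20 peaks), 10069 (upper domains), 17505 (upper Fbxl19 peaks) and 21607.5 (1 per host). The share within 1 kb of an end was 23.5% with 50% covered and 33.6%, 32.6%, 21.5%, 32.6% and 30.8% in the order of these settings. Why these values moved was not tested. Some settings change the rule itself. Counting features within 1 kb leaves out peaks with Fbxl19 within 1 kb and admits peaks up to 1 kb outside a gained domain. Asking for 50% cover leaves out peaks with less than 50% of their length in a gained domain. Depth per sample is unknown, and no replicate could be left out. No paired analysis was possible because the lists combine the replicates.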

Other observations

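Outside the autosomes the same conditions were met by 8 of the 271 Rnf20 peaks on chromosome X (2.95%, exact interval 1.28 to 5.73). They were met by 0 of the 124 on other sequences, where the exact interval reaches 2.93%. On chromosome X 77.1% of the Rnf20 peaks had neither Fbxl19 nor an ES, OE-high or differentiated domain.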
